A study of Rattus norvegicus with 183 samples.

Results

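Orphan G protein-coupled receptors are membrane receptors whose natural ligand was unknown when their genes were named. Many of these genes carry the symbol Gpr followed by a number. The deposited table has 38354 genes, and 68 of them with such a symbol were taken by name alone. A further gene with such a symbol is not analysed here. Of the 68, 45 had a mean of at least 1 on the log2(CPM + 1) scale over all libraries and are described below, and 23 lay under that mean. CPM stands for counts per 1e6 estimated counts of a library. The name marks a history and not a function. Some members have since been assigned a ligand, such as protons for Gpr4 or oxysterols for Gpr183. Others, such as Gpr107, Gpr108, Gpr137, Gpr155 and Gpr180, encode membrane proteins studied mainly outside classical receptor signalling.

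The samples are polyA RNA libraries from the posterior ventral tegmental area of outbred heterogeneous stock rats, and 152 of the 183 samples in the series have values. The labels give no treatment, sex or age, and nothing says that 2 libraries come from the same animal. Sample titles carry an identifier that is hexadecimal for 88 libraries, decimal for 63 and of another form for 1. Differences between animals and between the pieces of tissue dissected cannot be told apart.

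The ventral tegmental area holds dopamine neurons, GABA neurons and glutamate neurons, among many oligodendrocytes of the fibre tracts that cross it. G protein-coupled receptors change the excitability of such neurons, and orphan receptors are often restricted to a few cell types. Across bulk samples a gene can rise and fall with the markers of a cell type without being expressed in that type, so following a marker list does not place a gene in a cell. Fewer cells of a type and less RNA per cell cannot be told apart.

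Tyrosine hydroxylase (Th), the first enzyme of dopamine synthesis, went against the tissue label in 11 libraries. It lay between 1.33 and 3.47 CPM in these libraries, 1 of them with a hexadecimal and 10 with a decimal identifier. It lay between 577 and 3934 CPM, with a median of 1820, in the other 141, of which 87 have a hexadecimal, 53 a decimal and 1 another identifier. The summed CPM of 6 cortical neuron markers was 2315 to 2570 without Th, against a median of 22.7 with Th, although 6 libraries with Th had Slc17a7, a cortical glutamate transporter gene, above 100 CPM. The 9 oligodendrocyte markers summed to 1599 to 5433 CPM without Th and to 19472 to 49328 CPM with Th. Every relation to markers below uses only the libraries with Th, and the 11 without it are given as levels with no test. Library totals were 15.2 to 57.2 M (1e6) estimated counts, so that 1 CPM stands for at least 15.2 counts.

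The promoters of 4 genes are shown because their genes moved with the markers of 2 cell types described below, dopamine neurons for Gpr161 and Gpr6 and oligodendrocytes for Gpr37 and Gpr62. RefSeq (GRCr8) gave a promoter for 34 of the 45 described genes. Only 16 of the 34 have a promoter whose start lies within 1 base of the gene's position in the deposited table. Each line below holds the 250 bases before the gene's start, on the strand of the gene, and the position of the gene in the deposited table lies within 1 base of that start for all 4.
Gpr161, chr13:80111021-80111270, plus strand: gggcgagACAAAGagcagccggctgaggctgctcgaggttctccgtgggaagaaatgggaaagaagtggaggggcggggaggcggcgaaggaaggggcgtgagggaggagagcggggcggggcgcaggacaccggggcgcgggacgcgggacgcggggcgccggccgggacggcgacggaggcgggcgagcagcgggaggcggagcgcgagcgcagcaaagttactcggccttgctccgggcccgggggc
Gpr6, chr20:46075252-46075501, minus strand: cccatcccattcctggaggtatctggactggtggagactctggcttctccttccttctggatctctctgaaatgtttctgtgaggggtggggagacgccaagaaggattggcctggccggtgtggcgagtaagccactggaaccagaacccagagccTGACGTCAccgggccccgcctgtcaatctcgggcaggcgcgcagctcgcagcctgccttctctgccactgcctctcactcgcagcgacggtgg
Gpr37, chr4:55126421-55126670, minus strand: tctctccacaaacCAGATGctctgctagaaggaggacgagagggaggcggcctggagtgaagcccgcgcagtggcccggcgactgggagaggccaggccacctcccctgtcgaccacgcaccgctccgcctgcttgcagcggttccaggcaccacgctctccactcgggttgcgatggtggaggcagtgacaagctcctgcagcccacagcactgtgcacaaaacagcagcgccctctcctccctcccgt
Gpr62, chr8:115984023-115984272, minus strand: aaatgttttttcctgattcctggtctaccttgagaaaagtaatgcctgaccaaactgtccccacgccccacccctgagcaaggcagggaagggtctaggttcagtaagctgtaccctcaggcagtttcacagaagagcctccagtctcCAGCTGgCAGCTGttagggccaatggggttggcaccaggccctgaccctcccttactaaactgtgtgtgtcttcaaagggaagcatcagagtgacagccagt
In the Gpr161 promoter the capitals mark a match to ACAAAG, the core bound by SOX factors. This core is held on either strand by 16.3% of the 33469 promoters in the table and by 4 of the 34. In Gpr6 the capitals mark TGACGTCA, the cAMP response element, held by 1.59% of promoters and by no other of the 34. Gpr37 has CAGATG in capitals, held by 14.0% of promoters and by 3 of the 34. Gpr62 has 2 copies of CAGCTG, held by 12.0% of promoters and by 8 of the 34, among them Gpr158 and Gpr34. CAGATG and CAGCTG are forms of the E-box, the element of basic helix-loop-helix factors. AAAGGTCA, the response element of Nr4a2 and its relatives, matched 1.24% of all promoters and none of the 34. The windows differ in CpG dinucleotides, with 34 in Gpr161, 13 in Gpr6, 16 in Gpr37 and 1 in Gpr62, against a median of 14.5 over the 34 promoters and of 5 over all promoters.

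Counts per gene depend on transcript length, so levels are read within a gene and not between genes. In the libraries with Th, 17 of the 45 genes had a median above 20 CPM, 16 had 5 to 20 CPM and 12 had 5 CPM or less. Gpr37, a receptor expressed by myelinating oligodendrocytes and linked to prosaposin, lay between 34.1 and 82 CPM without Th (median 49.7), against 161 to 418 CPM with Th (median 273). Gpr158, a class C receptor that binds glycine and holds the Rgs7 complex at the membrane, lay between 152 and 194 CPM without Th (median 175), against 116 to 356 CPM with Th (median 243). The groups were apart for Gpr37 and overlapped for Gpr158.

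The proteins studied mainly outside classical signalling differed in how far they ranged. Gpr180, linked to transforming growth factor beta signalling, had 40.3 to 45.4 CPM without Th and 42.1 to 58.6 CPM with Th (median 50.5), with an SD of 0.10 on the log2 scale, larger than that of just 1.5% of the 200 tested genes nearest to it in mean. Gpr108, a Golgi protein, had 21.7 to 26.5 CPM without Th and 25.8 to 46.5 CPM with Th (median 31.9), with an SD of 0.16, larger than that of 9.5% of its 200 nearest genes. Gpr107, a protein of the secretory and endosomal route, had 59.4 to 67.5 CPM without Th and 34.1 to 79.2 CPM with Th (median 65.3), with an SD of 0.29, larger than that of 78.5% of its nearest genes. Gpr137, a lysosomal membrane protein, had 92.3 to 111 CPM without Th and 76.9 to 239 CPM with Th (median 112), with an SD of 0.36, larger than that of 91.5% of its nearest genes.

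The widest spread belonged to receptors. The SD over libraries with Th had a median of 0.29 on the log2 scale over the 45 genes, against 0.26 over all 15536 tested genes. Gpr101, a Gs-coupled receptor known from the hypothalamus and pituitary, had an SD of 0.94 and ran from 0.06 to 18.6 CPM (median 7.92), with 14 libraries under 1 CPM. Gpr165, an X-linked receptor gene of little known function, had an SD of 0.76 and ran from 2.24 to 59.5 CPM (median 33.7). Both are wider than at least 96.0% of the 200 genes nearest in mean. Gpr6 (SD 0.50), Gpr149 (0.47), Gpr26 (0.47), Gpr161 (0.46), Gpr22 (0.42), Gpr183 (0.41) and Gpr182 (0.40) were among the next. Of these, Gpr161 was wider than 95.5% of its 200 nearest genes, Gpr149 than 87.5% and Gpr26 than 85%. For Gpr22, Gpr6, Gpr183 and Gpr182 the share was 83%, 80%, 74% and 66.5%. Except for Gpr161, these shares lie under the 91.5% of Gpr137.

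Around the threshold, Gpr160 (mean 1.19) and Gpr183 (1.18) were just inside, and Gpr25 (0.75) was outside. For 7 of the 23 genes under the threshold the median library with Th was at 0. Gpr151, a receptor of the medial habenula and its axons, reached 0.91 CPM at most with Th (median 0.25).

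**Figure D1:**
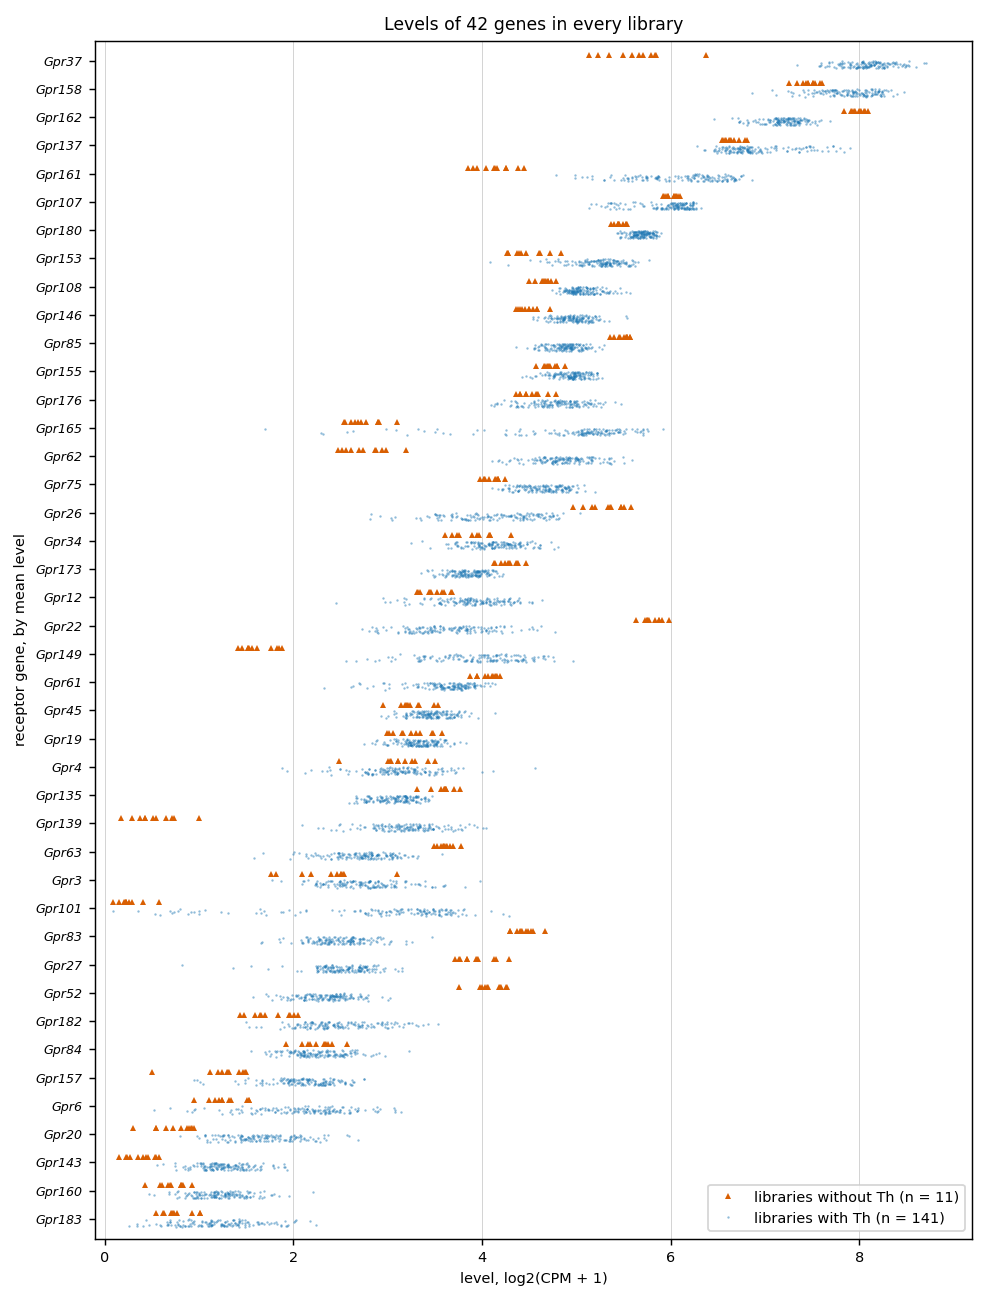
Level of 42 of the described genes on the log2(CPM + 1) scale in every library. Triangles are the 11 libraries without Th, points the 141 with Th, and genes are ordered by mean. The triangles stand right of all points for 6 genes, such as Gpr22 and Gpr83, and left of all points for 5, such as Gpr139 and Gpr149.

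Set beside the libraries with Th, the 11 without it had higher, non-overlapping levels for 8 of the 45 genes (17.8%), where 8.87% of all tested genes were placed so. They had lower, non-overlapping levels for 5 genes (11.1%, against 10.2% of all tested genes). The ranges of the other 32 overlapped. Since the 11 were set apart by their Th, this is a description of 2 sets of libraries.

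The 5 lower genes are Gpr37 (above), Gpr62, Gpr149, Gpr161 and Gpr139. Gpr149, an orphan receptor of the brain and ovary, had 1.66 to 2.69 CPM without Th and 4.88 to 30.3 CPM with Th (median 15.2). Gpr161, a receptor of the primary cilium that restrains Hedgehog signalling, had 13.4 to 20.8 CPM without Th and 26.6 to 115 CPM with Th (median 74.4). Gpr139, a Gq-coupled receptor that responds to aromatic amino acids and is known from the habenula, had 0.12 to 1.00 CPM without Th and 3.26 to 15.5 CPM with Th (median 8.26). Gpr62, a constitutively active receptor, had 4.55 to 8.14 CPM without Th and 16.2 to 47.2 CPM with Th (median 28.1). In each of these the highest library without Th stayed under the lowest with Th.

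Several of the 8 higher genes are known from brain neurons. Gpr22, a Gi-coupled receptor of brain and heart, had 48.6 to 62.5 CPM without Th and 5.61 to 26.3 CPM with Th (median 11.6). Gpr83, which is linked to the neuropeptide PEN, had 18.6 to 24.3 CPM without Th and 2.15 to 10.1 CPM with Th. Gpr162 had 228 to 273 CPM without Th and 87.2 to 205 CPM with Th. Gpr85 and Gpr27, 2 of the 3 receptors of the family called super conserved receptors expressed in brain, and Gpr52 were higher too. Gpr173, the other member of that family, overlapped, with 16.5 to 21.1 CPM without Th and 9.23 to 17.7 CPM with Th.

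Each gene was then related to 20 lists of cell type markers over the 141 libraries with Th. The score of a list is the mean z-score of its genes. The Pearson r of a gene with a score was computed for 900 pairs of gene and list, and a gene is said to follow the list of highest r where that r reached 0.4. By this rule 37 of the 45 genes followed a list. All 37 had a permutation p of r of 1e-05, the smallest that 100000 resamples can give. Their permutation p of Spearman's rho was at most 0.00085 (two-sided). Their limma slopes on the score had an adjusted p of at most 3.14e-05. The rule had already taken the highest of 20 values of r and kept those of 0.4 or more, so small p-values follow from it. No p-value for a followed list, here or below, covers the choice among the 20 lists. Dopamine neurons were followed by 6 genes, interpeduncular or habenular neurons by 7, general neuron markers by 3, the subcortical glutamate transporter Slc17a6 by 3 and striatal neurons by 1. Oligodendrocytes were followed by 3 genes, their precursors by 7, astrocytes by 2, microglia by 1, meningeal fibroblasts by 3 and choroid plexus by 1. Among these 37, r without the 2 libraries farthest from the median score ran from 0.324 (Gpr52) to 0.786 (Gpr107). In decimal libraries alone r was 0.076 for Gpr157 and 0.096 for Gpr3, so their relations rest on the hexadecimal libraries. No gene reached 0.4 with GABA, cortical or cholinergic neurons or with erythrocytes.

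**Figure D2:**
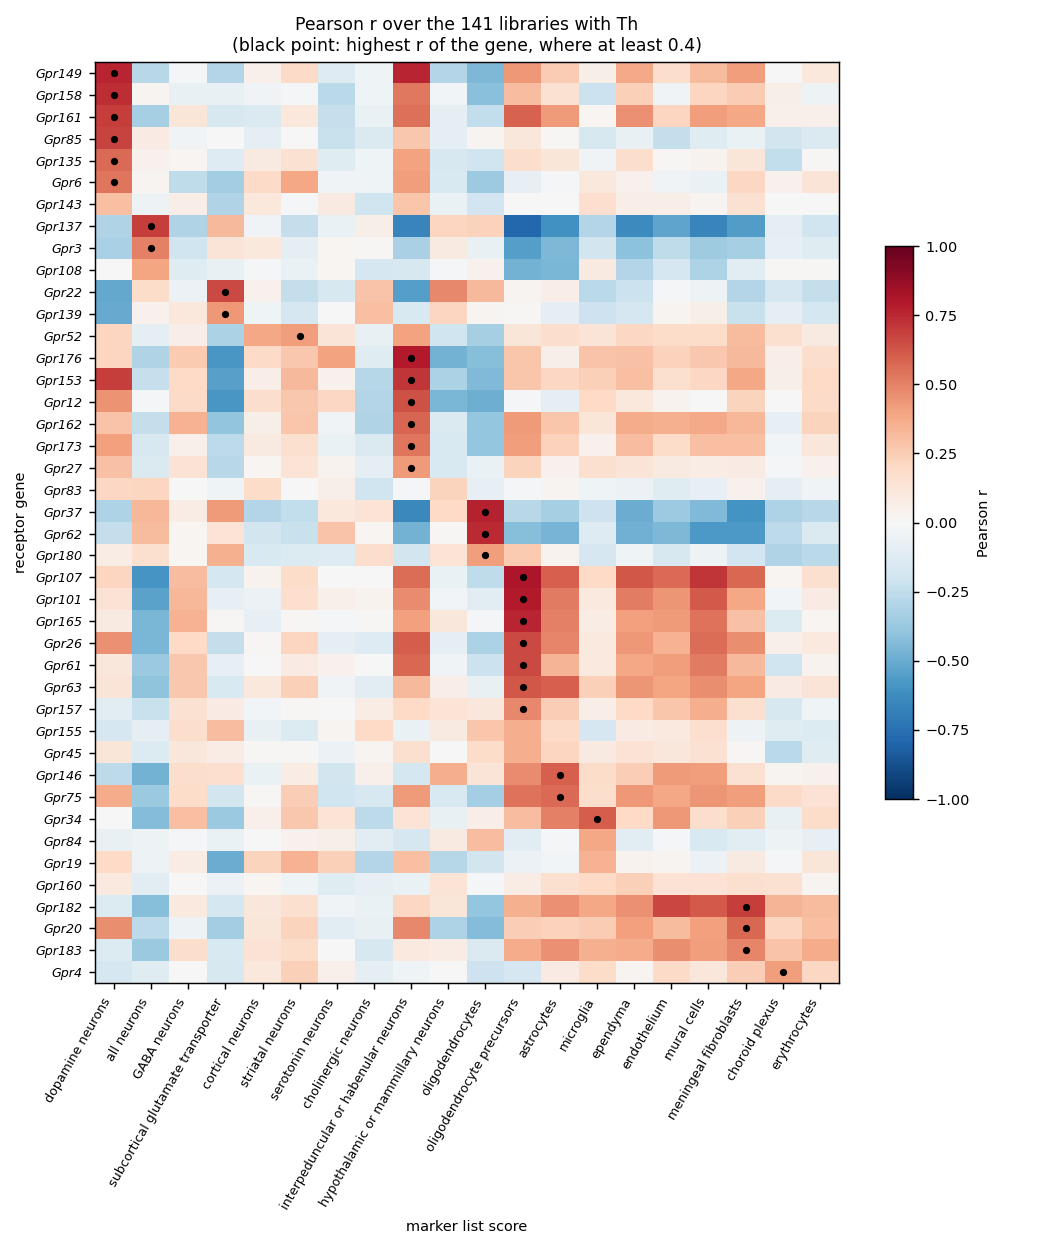
Pearson r of 42 of the genes (rows) with the scores of 20 marker lists (columns) over the 141 libraries with Th, from blue (-1) to red (1). A black point marks the highest r of a gene where it is at least 0.4, which 34 of the plotted genes have. With oligodendrocytes, 5 of the 6 followers of dopamine neurons are blue, from -0.202 for Gpr135 to -0.448 for Gpr149, and Gpr85 is near white (r = 0.028).

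6 receptor genes followed the 12 dopamine neuron markers most closely. Gpr149 had the highest r (0.762, rho 0.727) and rose by 0.37 ± 0.026 on the log2 scale per SD of the score (limma slope with its SE, 140 libraries, adjusted p = 1.74e-26). Gpr158 had r = 0.736 (rho 0.754) and rose by 0.22 ± 0.017 (limma adjusted p = 1.36e-23). Gpr161 had r = 0.691 (rho 0.732) and rose by 0.34 ± 0.027 (limma adjusted p = 1.06e-22). Of all tested genes, 0.41% had an r with this score as high as Gpr149, 0.59% as high as Gpr158 and 0.89% as high as Gpr161. The relation held within each identifier format, with r = 0.758 (hexadecimal) and 0.807 (decimal) for Gpr149, 0.705 and 0.804 for Gpr158 and 0.696 and 0.894 for Gpr161. Without the 2 libraries farthest from the median score, r was 0.752 for Gpr149, 0.752 for Gpr158 and 0.675 for Gpr161. Gpr149 was nearly as close to the interpeduncular or habenular list described below (r = 0.758). In hexadecimal libraries alone Gpr149 was marginally closer to that list (r = 0.767). It was so too without the libraries with Slc17a7 above 100 CPM (r = 0.759, against 0.749 with the dopamine list).

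The other 3 are Gpr85 (r = 0.673), Gpr135 (0.567) and Gpr6 (0.536), the last a constitutively active Gs-coupled receptor best known from striatal neurons. Gpr6 rose by 0.26 ± 0.036 per SD of the score (limma adjusted p = 6.30e-10), and in decimal libraries alone it was closer to the interpeduncular or habenular list (r = 0.639) than to the dopamine list (r = 0.51). Single markers divide the followers. The closest single marker of a gene is the highest r among 108 genes, so these values are a description with no test. Gpr161 was closest to Chrna6, the nicotinic receptor subunit typical of midbrain dopamine neurons, with r = 0.908 (rho 0.930). Gpr149 was closest to Aldh1a1, a dehydrogenase that marks a subset of these neurons, with r = 0.848 (rho 0.842). Gpr85 was closest to Nr4a2, the nuclear receptor that specifies them, with r = 0.668 (rho 0.696). Gpr135 was closest to Slc18a2, the vesicular monoamine transporter, with r = 0.570. Gpr158 was closest to Syt1, a general synaptic vesicle gene (r = 0.850), and then to Ret (0.824). Gpr6 was closest to Neurod6 (r = 0.676), which is listed here among cortical markers but also marks a subset of midbrain dopamine neurons in the mouse.

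By the limma test, 21 of the 45 genes (46.7%) rose with the dopamine neuron score, where 19.8% of all tested genes did, and 8 (17.8%) fell, where 14.8% did. The median slope was 0.049 over the 45 genes and 0.0049 over all genes. The genes that fell most were Gpr22, by 0.21 per SD (limma adjusted p = 5.92e-09), and Gpr139, by 0.17 (limma adjusted p = 1.84e-08). With median-of-ratios scaling 16 rose and 7 fell, against 14.7% and 13.9% of all genes. In the decimal libraries alone 13 rose and 3 fell, against 10.7% and 5.62% of all genes.

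**Figure D3:**
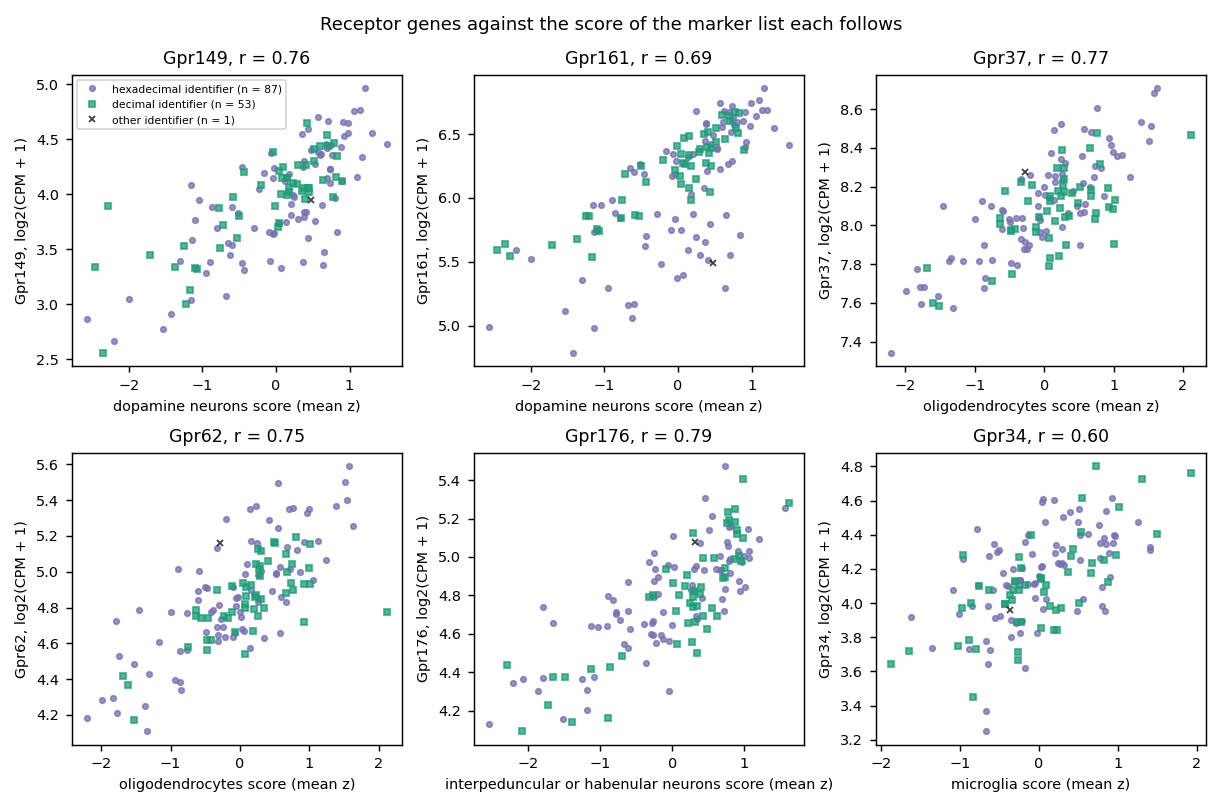
Level of 6 receptor genes, log2(CPM + 1), against the score of the marker list each follows, in the libraries with Th. Circles are the 87 hexadecimal, squares the 53 decimal libraries and the cross the library with another identifier. Gpr161 rises with the dopamine score in decimal (r = 0.894) and in hexadecimal libraries (r = 0.696).

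The list of interpeduncular or habenular neurons holds 4 nicotinic receptor subunit genes, Chrna2, Chrna3, Chrna5 and Chrnb4, that mark the neighbouring interpeduncular nucleus and its habenular input. Its score also rose with the dopamine score (r = 0.449). Gpr176, a Gz-coupled receptor known from the circadian clock of the suprachiasmatic nucleus, followed it with r = 0.792 (rho 0.782) and rose by 0.23 ± 0.015 per SD (limma adjusted p = 1.16e-29). Its range was 19.5 to 26.6 CPM without Th and 16.1 to 43.4 CPM with Th (median 27.0). Gpr153 had r = 0.717, with 0.693 for the dopamine score, and Gpr12, a constitutively active Gs-coupled receptor, had r = 0.633. Gpr162 (0.584), Gpr173 (0.534) and Gpr27 (0.423) were weaker.

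Chrnb4 was the closest single marker of Gpr176 (r = 0.794) and Gpr12 (0.740). For Gpr153 and Gpr173 it was Syt1, a general synaptic vesicle gene (r = 0.744 and 0.609). Their choice of list was unstable. Gpr153 was closer to the dopamine list by Spearman's rho (0.668, against 0.630) and with median-of-ratios scaling (r = 0.695, against 0.619). Gpr173 was closer to it with median-of-ratios scaling (r = 0.405, against 0.350), and level with oligodendrocyte precursors in hexadecimal libraries (both 0.463). All 7 followers of the interpeduncular or habenular list were negative with Slc17a6, the transporter of subcortical glutamate neurons. Here r was -0.26 for Gpr173 and -0.584 for Gpr176. With this score 26 of the 45 genes rose (50.9% of all tested genes did) and 10 fell (20.8% did), and with median-of-ratios scaling 22 rose and 13 fell, against 34.7% and 32.7% of all genes.

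Gpr22 followed Slc17a6 with r = 0.660 (rho 0.711), 0.631 in hexadecimal and 0.682 in decimal libraries, and rose by 0.27 ± 0.026 per SD (limma adjusted p = 1.10e-16). Gpr139 had r = 0.436 with Slc17a6 and -0.50 with the dopamine score. Gpr22 and Gpr139 thus moved with Slc17a6 and against the dopamine markers, while Slc17a6 itself had r = -0.130 with the dopamine score. Slc17a6 was not the closest single marker of Gpr22 or of Gpr139. Gpr22 was marginally closer to Snap25, a general neuron marker (r = 0.665), and Gpr139 to Abcc9, a mural cell marker (r = 0.461). Of the 45 genes, 8 rose with Slc17a6 and 16 fell, where 15.1% and 37.9% of all tested genes did. With median-of-ratios scaling 11 rose and 15 fell, against 25.0% and 27.5% of all genes.

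Gpr52, a Gs-coupled receptor best known from striatal neurons, had r = 0.417 with the striatal list. This choice of list was unstable, since the striatal r was 0.376 in hexadecimal libraries, under that with cortical markers (0.399), and 0.488 in decimal ones, under that with the interpeduncular or habenular list (0.636). By Spearman's rho the cortical list (0.358) also came before the striatal one (0.349), and without the 6 libraries with Slc17a7 above 100 CPM the interpeduncular or habenular list (0.461) did so (striatal r 0.444). The GABA neuron list was followed by no gene, although 12 of the 45 rose with it (32.2% of all tested genes did) and 5 fell (10.6% did). With median-of-ratios scaling 0 of 45 rose and 2 fell, against 3.92% and 4.40% of all genes, and 4 rose at an unadjusted limma p below 0.05. The genes of the list did not move as one. Gpr165 had r = 0.940 with Gad2 (rho 0.816), 0.950 in hexadecimal and 0.680 in decimal libraries. With Gad1, the other glutamate decarboxylase of GABA neurons, Gpr165 had r = 0.20, and with Slc32a1, their vesicular transporter, 0.082. Gpr101 showed the same split, with r = 0.894 for Gad2, 0.249 for Gad1 and 0.114 for Slc32a1.

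Gpr37 and Gpr62 followed the 9 myelin and oligodendrocyte markers. Gpr37 had r = 0.772 (rho 0.708), 0.840 in hexadecimal and 0.644 in decimal libraries, and rose by 0.20 ± 0.013 per SD (limma adjusted p = 1.57e-27). Gpr62 had r = 0.747 (rho 0.720), 0.789 in hexadecimal and 0.693 in decimal libraries, and rose by 0.22 ± 0.016 (limma adjusted p = 5.04e-25). About 0.084% of all tested genes had an r with this score as high as Gpr37, and 0.13% as high as Gpr62. Their closest single markers were Mag (r = 0.806 with Gpr37) and Cldn11 (0.796 with Gpr62), both myelin genes. The 2 receptors moved together with r = 0.776 (rho 0.725). Gpr180 also followed the list, with r = 0.416 and a slope of 0.04 ± 0.0082. In decimal libraries Gpr180 was closer to general neuron markers (r = 0.519) than to this list (r = 0.406).

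Of the 45 genes, 8 rose with the oligodendrocyte score, where 16.0% of all tested genes did, and 18 fell, where 35.1% did. With median-of-ratios scaling 13 rose and 21 fell, against 32.4% and 34.0% of all genes. The genes that fell include 5 of the 6 dopamine neuron followers, namely Gpr149, Gpr158, Gpr161, Gpr135 and Gpr6.

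A set of 7 genes had their highest r with the 5 markers of oligodendrocyte precursors, led by Gpr107 (0.808), Gpr101 (0.795) and Gpr165 (0.764), with Gpr26, Gpr61, Gpr63 and Gpr157 behind. This list is a weak basis for a cell type. Its 5 genes had a mean pairwise r of 0.211, against 0.685 for the dopamine list, and its score had r = -0.859 with the first principal component of all tested genes. That component held 31.9% of the variance over the libraries with Th and had r = 0.865 with the score of 13 nuclear oxidative phosphorylation genes. Gpr107, Gpr101 and Gpr165 also had r = 0.713, 0.612 and 0.542 with mural cells, a vessel list. The closest single marker of Gpr107 was Rgs5 of that list (r = 0.865). By Spearman's rho Gpr107 was closer to mural cells (0.706) than to precursors (0.683). In decimal libraries Gpr107, Gpr26 and Gpr61 were closer to the interpeduncular or habenular list (r = 0.662, 0.630 and 0.568, precursors 0.468, 0.370 and 0.295). Of the 45 genes, 26 rose with the precursor score and 7 fell, where 55.4% and 23.2% of all tested genes did. With median-of-ratios scaling 13 rose and 12 fell, against 38.7% and 34.8% of all genes.

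Several members lay far out on this component. Gpr107 had r = -0.944 with it, Gpr101 -0.873, Gpr165 -0.804, Gpr26 -0.799 and Gpr61 -0.771, while Gpr137 had r = 0.921. Gpr107 and Gpr137 were opposed in the same libraries, with r = -0.890 (rho -0.779), -0.916 in hexadecimal and -0.585 in decimal libraries. Over the 45 genes 10 had r of -0.5 or below with the component and 5 had 0.5 or above, where 34.0% and 12.4% of all tested genes did. Gad2 had r = -0.815 with the component, against -0.377 for Gad1.

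With the component as a further term in the limma fit, a choice made after seeing the data, 28 of the 37 followers kept their call in the same direction. The 7 followers of the precursor list lost it, as did 2 of the 3 followers of general neuron markers, Gpr3 among them. The slope of Gpr101 per SD of the precursor score was 0.15 with the term (limma adjusted p = 0.179) and 0.71 without it. The 6 followers of dopamine neurons kept their slopes, with 0.32 for Gpr149, 0.28 for Gpr161 and 0.20 for Gpr158. Gpr37 and Gpr62 kept 0.16 and 0.17 with oligodendrocytes. Gpr137, the lysosomal protein that followed general neuron markers (r = 0.694), rose by 0.04 with the term (limma adjusted p = 0.0335) and by 0.24 without it. Its closest marker was Eno2, a neuronal glycolytic enzyme gene, with r = 0.936, and Eno2 had r = 0.885 with the component.

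**Figure D4:**
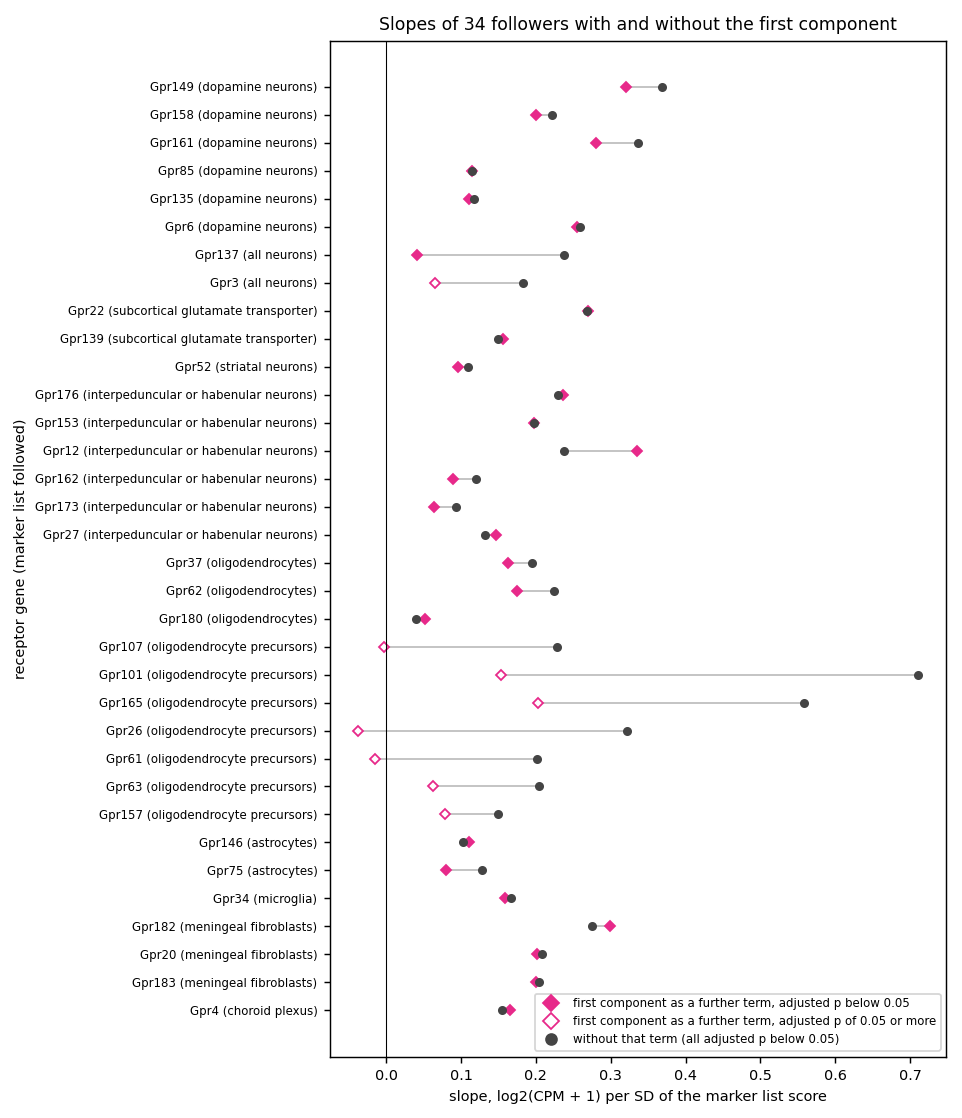
Limma slope of 34 of the followers, log2(CPM + 1) per SD of the score it follows, with (diamonds) and without (circles) the first principal component as a further term. Open diamonds have an adjusted p of 0.05 or more. All 7 precursor followers are open, and 3 of these, Gpr107, Gpr26 and Gpr61, are below 0.

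Gpr34, the lysophosphatidylserine receptor of microglia, followed the microglia list with r = 0.604 (rho 0.602) and rose by 0.17 ± 0.019 per SD (limma adjusted p = 3.93e-13). No other of the 45 reached r = 0.4 with that list, and 0.69% of all tested genes had an r as high. For Gpr34, r with microglia was 0.528 in hexadecimal and 0.710 in decimal libraries. Its next list was astrocytes (r = 0.505). The closest single marker of Gpr34 was Gja1, an astrocyte gene (r = 0.559), and not a microglia gene. Gpr34 had 11.2 to 18.9 CPM without Th and 8.51 to 26.9 CPM with Th (median 16.5). Gpr84, a receptor for medium-chain fatty acids induced in activated microglia, had r = 0.386. With the microglia score 12 of the 45 genes rose and 8 fell, where 35.2% and 9.99% of all tested genes did, and with median-of-ratios scaling 6 rose and 8 fell, against 17.8% and 17.6% of all genes.

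Gpr146 had r = 0.597 with astrocytes and was closest to Fgfr3 (r = 0.784), an astrocyte growth factor receptor gene. Gpr75 had r = 0.564 with the list and 0.541 with oligodendrocyte precursors. These choices of list were unstable. By Spearman's rho Gpr75 was closer to precursors (0.581, astrocytes 0.575), as it was in decimal libraries (r = 0.571, astrocytes 0.518). In decimal libraries Gpr146 was closer to hypothalamic or mammillary neurons (r = 0.511, astrocytes 0.472). Both kept an astrocyte slope with the component in the fit, 0.11 for Gpr146 and 0.08 for Gpr75. With the astrocyte score 21 rose and 7 fell, where 49.3% and 22.0% of all tested genes did, and with median-of-ratios scaling 11 rose and 11 fell, against 31.8% and 30.2% of all genes.

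Gpr182, an atypical chemokine receptor of endothelial cells, had r = 0.671 with endothelium and 0.688 with meningeal fibroblasts, and rose by 0.28 ± 0.025 per SD of the fibroblast score (limma adjusted p = 2.02e-19). Gpr20 (r = 0.573) and Gpr183 (0.487), the receptor of immune cells for oxysterols, followed the fibroblast list too. These choices of list were unstable. In decimal libraries Gpr183 was closer to choroid plexus (0.643, fibroblasts 0.477), Gpr20 to the interpeduncular or habenular list (0.628, fibroblasts 0.591) and Gpr182 marginally to endothelium (0.638, fibroblasts 0.632). In hexadecimal libraries Gpr183 was closer to astrocytes (0.560, fibroblasts 0.509). Gpr182 had 1.71 to 3.15 CPM without Th and 1.83 to 10.6 CPM with Th. Gpr183 had 0.45 to 1.02 CPM without Th and 0.20 to 3.73 CPM with Th, under 1 CPM in 42 libraries with Th. Gpr4, a proton-sensing receptor of endothelium, had r = 0.414 with the choroid plexus list and 0.191 with endothelium. With the endothelium score 19 rose and 7 fell, where 51.5% and 20.0% of all tested genes did, and with median-of-ratios scaling 11 rose and 13 fell, against 30.9% and 31.3%. With the fibroblast score 24 rose and 8 fell, where 52% and 21.1% did, and with median-of-ratios scaling 16 rose and 14 fell, against 35.3% and 35.6%.

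The 8 genes that followed no list at 0.4 were Gpr108 (highest r 0.392), Gpr84 (0.386), Gpr155 (0.366), Gpr45 (0.363), Gpr19 (0.351), Gpr143 (0.298), Gpr160 (0.237) and Gpr83 (0.226).

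Between the hexadecimal and the decimal libraries with Th, 6 of the 45 genes were higher with a hexadecimal identifier, where 14.3% of all tested genes were, and 8 were lower, where 23.7% were. With median-of-ratios scaling the split was 9 higher and 6 lower, against 18.3% and 19.1% of all genes. Gpr6 had 0.62 to 7.80 CPM in hexadecimal libraries (median 3.78) and 0.43 to 6.17 CPM in decimal ones (median 3.13), a difference of 0.26 ± 0.085 on the log2 scale (limma adjusted p = 0.0105). Gpr101 had 0.06 to 18.6 CPM in hexadecimal libraries (median 7.37) and 2.65 to 14.2 CPM in decimal ones (median 8.94), a difference of -0.57 ± 0.15 (limma adjusted p = 0.00216). Gpr165 had 2.24 to 53 CPM in hexadecimal libraries (median 32.9) and 21.2 to 59.5 CPM in decimal ones (median 35.0), a difference of -0.47 ± 0.13 (limma adjusted p = 0.00184). The lowest values of Gpr101 and Gpr165 were thus hexadecimal. With the library total in the fit 1 gene was higher and 3 were lower, against 5.65% and 12.0% of all genes. The slope on the dopamine score differed between formats for none of the 15536 tested genes (0% called by limma, with 1814 at an unadjusted p below 0.05), and for the 45 the smallest adjusted p of this difference was 0.344.

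Pairs of genes are given as a description, with no test. Over the 990 pairs of the 45 genes the median r was 0.073. Gpr3, Gpr6 and Gpr12 are close relatives that signal through Gs without a ligand, and Gpr6 and Gpr12 had r = 0.468, while Gpr3 had r = -0.034 with Gpr6 and 0.039 with Gpr12. In the family of super conserved receptors, Gpr85 and Gpr173 had r = 0.273, Gpr27 and Gpr173 0.207 and Gpr27 and Gpr85 0.174. Higher values joined unrelated genes, such as Gpr101 and Gpr165 (0.882) or Gpr26 and Gpr161 (0.859). For Gpr101 and Gpr165 r was 0.893 in hexadecimal and 0.608 in decimal libraries, and for Gpr26 and Gpr161 0.892 and 0.709. These genes all lay far out on the first principal component, with r of -0.873 for Gpr101, -0.804 for Gpr165, -0.799 for Gpr26 and -0.725 for Gpr161.

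Reported partners are given in the same way. Gpr158 had r = 0.461 with Rgs7 (rho 0.405), the regulator of G protein signalling that it holds at the membrane, and 0.060 with Gnb5, the beta subunit bound to Rgs7. With Gnb5, r was -0.154 in hexadecimal and 0.573 in decimal libraries. Gpr37 had r = -0.093 with Psap, the prosaposin gene, and 0.484 with its relative Gpr37l1. Among 12 tested receptor genes of similar standing with other symbols, 1 rose and 2 fell with the dopamine score. Of all tested genes, 19.8% rose and 14.8% fell with it. With the oligodendrocyte score 3 of the 12 rose and 7 fell, where 16.0% and 35.1% of all tested genes did. With the dopamine score Opn3 rose by 0.17 ± 0.023 (limma adjusted p = 1.68e-10), and Gpr37l1 and Lgr5 fell.

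Of the 45 genes, 13 overlap another annotated gene in GRCr8, among them Gpr149, Gpr158, Gpr62 and Gpr139. Gpr22 overlaps Cog5, and Gpr34 overlaps Cask. The sources used here do not state whether counting used strand, so reads of these genes and of their overlapping partners may not be told apart.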

How the data were processed

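PolyA RNA libraries from 152 of the 183 samples of the series were analysed, and 31 samples whose label says that they were removed were not. The deposited values are log2-transformed estimated counts, made by the authors with kallisto 0.48 per the submitters' processing notes. That they are log2(estimated count + 1) was taken from the values, of which 55.7% below 100 lie within 0.001 of a whole number after back-transformation. The genome build and strand use are not given in the sources used here. Values were back-transformed, divided by the library total and used as log2(CPM + 1) with a pseudocount of 1, and 15536 genes with a mean of at least 1 were tested. Marker scores are mean z-scores of 108 genes in 20 lists that passed this filter, of 117 listed. Slopes on scores were fitted with limma 3.58.1 (R 4.3.3) over 140 libraries with identifier format as a covariate, and Benjamini-Hochberg adjustment covered all tested genes of a fit. A gene was left out of the fit of a list that holds it. The library with another identifier entered r but not limma. Correlations used 100000 permutations, and the script was tested on simulated data.

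The rule for naming genes took the 10 highest means, the 10 widest SDs and, per list, the 3 highest r of at least 0.4. Gpr153, Gpr146 and Gpr26 are given without their CPM ranges, and not every list is described. Others were named after their values were seen, and some genes that the rules cover are counted but not reported here. The members, lists and rules were chosen with earlier results of these data known. The labels do not say that libraries are separate animals, so p-values measure the spread between these libraries. Alternatives were median-of-ratios scaling, a pseudocount of 0.1, no filter on low values, other covariates and subsets of libraries. Library totals of 15.2 to 57.2 M (1e6) counts limit the precision of genes near 1 CPM. Promoter sequences are RefSeq's (GRCr8). Figures were drawn with matplotlib 3.10.9.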

Additional observations from a re-analysis of the deposited data

How the results depend on the processing

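Of the 37 slopes on followed lists, all kept their direction and call under median-of-ratios scaling, a pseudocount of 0.1, no filter on low values, no format term, the library total as a term, 6 scores together, without the 6 libraries with Slc17a7 above 100 CPM, without relabelled or recovered libraries and in hexadecimal libraries alone. In decimal libraries alone Gpr3 and Gpr157 lost the call. With the first principal component as a term, added after seeing the data, 6 lost it and the precursor slopes of Gpr107 (-0.0031), Gpr26 (-0.038) and Gpr61 (-0.015) changed sign. The slope of Gpr83 on the hypothalamic or mammillary list, r under 0.4, was -0.010 in decimal libraries. The followed list stayed the same for 22 of 37 genes in decimal libraries.

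Counts of members that rose moved with several settings, and the shares of all tested genes moved too. In the reported fit 21 rose with dopamine neurons (19.8% of all genes), 8 with oligodendrocytes (16.0%), 12 with GABA neurons (32.2%), 21 with astrocytes (49.3%), 12 with microglia (35.2%) and 19 with endothelium (51.5%). With median-of-ratios scaling 13 rose with oligodendrocytes (32.4%), 0 with GABA neurons by limma (3.92%, with 4 members at an unadjusted p below 0.05), 11 with astrocytes (31.8%), 6 with microglia (17.8%) and 11 with endothelium (30.9%). In decimal libraries 13 rose (10.7%) and 3 fell (5.62%, against 8 and 14.8% in the reported fit) with dopamine neurons, 5 rose with oligodendrocytes (6.65%), 2 with GABA neurons (6.79%), 5 with astrocytes (13.9%) and 4 with endothelium (21.9%). In hexadecimal libraries 7 rose with GABA neurons (20.3%) and 7 with microglia (20.7%). With the first component 14 rose with oligodendrocytes (18.0%), 3 with GABA neurons (5.46%), 9 with astrocytes (15.8%), 7 with microglia (32.4%) and 8 with endothelium (22.0%), and 3 were lower with a hexadecimal identifier (12.7%, against 8 and 23.7%). With 6 scores together 13 rose with astrocytes (26.3%) and 9 with endothelium (31.6%). With the library total 1 was higher (5.65%, against 6 and 14.3%) and 3 were lower (12.0%) with a hexadecimal identifier. The cause was not tested for any of these. No paired analysis was possible because replicate numbers only follow the order of the samples. Levels under 1 CPM rest on few counts in the smaller libraries.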
